A study of Mus musculus with 45 samples.

Results

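The genes of the unfolded protein and amino acid stress response were followed in mouse kidney tubules before cysts form. The set held 10 genes listed by name: *Ern1*, *Atf6*, *Xbp1*, *Atf4*, *Ddit3*, *Hspa5*, *Herpud1*, *Asns*, *Trib3* and *Chac1*. All 10 were found among the 55401 genes of the count tables, and all 10 passed the filter on low counts in both sexes. Of these genes, *Asns* was higher in Pkd1KO+ciliaKO than in noncystic males, *Ern1* was higher in noncystic males than in noncystic females, and *Ddit3* was lower in Pkd1KO males than in Pkd1KO females. No other member passed an adjusted p of 0.05 in any of the 12 comparisons by edgeR's quasi-likelihood test. Each call was thus 1 of 10 members, where 8.89%, 27.4% and 30.6% of all genes tested were called in the same order.

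Proteins that fail to fold in the endoplasmic reticulum (ER) bind the chaperone BiP, encoded by *Hspa5*, and so release the membrane sensors Ire1 (*Ern1*), Perk (*Eif2ak3*) and *Atf6*. Ire1 splices *Xbp1* mRNA, cleaved *Atf6* enters the nucleus, and Perk phosphorylates eIF2alpha, which lowers translation in general and raises that of *Atf4*. The kinase Gcn2 (*Eif2ak4*) reaches the same eIF2alpha site when amino acids run short, so *Atf4* and its targets respond to both kinds of stress. In kidney tubules the pathway is best known from toxic, ischaemic and proteinuric injury.

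Measurements came from translating ribosome affinity purification (TRAP) followed by RNASeq, in which mRNA is pulled down with an EGFP-tagged ribosomal protein. Every mouse carried RosaEGFP-Rpl10a together with Pax8rtTA and TetOCre, and received doxycycline from postnatal day 28 to 42. Pax8rtTA is active in tubule epithelium, so recombination and the ribosome tag were directed to tubule cells. Markers of fibroblasts, macrophages and endothelial cells were still present in every mouse, so the RNA was not from tubule cells alone. Kidneys were taken at 7 weeks (postnatal day 49), and each sample was 1 mouse. Noncystic mice were Pkd1fl/+, so these controls also carried 1 floxed Pkd1 allele, although the labels call them wild type. Pkd1KO mice were Pkd1fl/fl, and Pkd1KO+ciliaKO mice were Pkd1fl/fl and Kif3afl/fl, which removes a kinesin subunit that cilia need. There were 8 noncystic, 7 Pkd1KO and 9 Pkd1KO+ciliaKO males, and 7 noncystic, 8 Pkd1KO and 6 Pkd1KO+ciliaKO females. In such bulk samples fewer cells of a type and less RNA per cell cannot be told apart. Gene counts also do not separate spliced from unspliced *Xbp1*.

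The 45 libraries held 80874556 to 132958186 counts (median 103070359). *Kif3a* went against the label in 2 female libraries: it was 6.65 CPM (counts scaled to library size) in noncystic replicate 5 and 20.3 CPM in Pkd1KO+ciliaKO replicate 6, against 4.78 to 8.25 CPM in the other Pkd1KO+ciliaKO mice and 13.8 to 29.3 CPM in the other mice of the remaining genotypes. On the first principal component, which held 42.3% of the variance, 4 male libraries (noncystic 3, Pkd1KO 4, Pkd1KO+ciliaKO 6 and 8) lay at -30.2 to -1.13, against 14.4 to 40.3 for the other males and -38.4 to -12.9 for the females. Markers of the proximal tubule summed to 4047 to 9996 CPM per mouse, the lowest in Pkd1KO male 4. These 2 female and 4 male libraries are called here the libraries that stand apart. Values without them are given for *Asns* in the male genotype comparisons and in Pkd1KO against noncystic females. They are also given for *Trib3* in Pkd1KO against noncystic males, and for the wider pathway.

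Per transcript length, the order of the members was nearly the same in every group. In noncystic males *Herpud1* averaged 292 ± 51.6 TPM (SD, n = 8; TPM divides counts by transcript length before scaling each library to the same total) and *Hspa5* 249 ± 48.0 TPM, a difference smaller than these SDs. *Atf4* at 120 ± 18.0 TPM and *Xbp1* at 104 ± 18.0 TPM came next and were also within an SD of each other, followed by *Atf6* at 25.3 ± 3.07 TPM. *Ern1* (12.7 ± 1.22 TPM), *Ddit3* (11.3 ± 1.68 TPM) and *Asns* (6.73 ± 2.08 TPM) were lower still. *Chac1* (1.39 ± 0.658 TPM) and *Trib3* (1.11 ± 0.584 TPM) were the lowest and did not differ beyond their spread. *Herpud1* ranked first and *Hspa5* second in all 6 groups, and *Atf4*, *Xbp1* and *Atf6* followed in that order. Raw counts ran from 27 for *Chac1* to 60475 for *Hspa5*, so counting error weighed most on *Chac1* and *Trib3*.

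Among the members with a RefSeq promoter window, 5 of 9 held one of the sequence elements through which stress factors are known to act. The windows ran from 250 bases before to 50 bases after the RefSeq start on GRCm38.p6 and were searched on both strands. The ER stress response element (ERSE, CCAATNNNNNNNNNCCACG) is known to be bound by NF-Y together with cleaved *Atf6*, and ERSE-II (ATTGGNCCACG) is its shorter relative. The C/EBP-ATF response element (CARE, TGATGNAA) is bound by *Atf4*. The 5 promoters are printed from base 200 before to base 30 after the start, in the direction of transcription, because these members include the ER chaperone and the amino acid enzyme that the results turn on. Capitals mark the matched element.
Hspa5: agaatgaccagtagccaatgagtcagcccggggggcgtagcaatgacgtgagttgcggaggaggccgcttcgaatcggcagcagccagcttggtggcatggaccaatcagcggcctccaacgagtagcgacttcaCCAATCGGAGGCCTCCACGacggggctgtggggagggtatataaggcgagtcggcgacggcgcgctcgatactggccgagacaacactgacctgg
Herpud1: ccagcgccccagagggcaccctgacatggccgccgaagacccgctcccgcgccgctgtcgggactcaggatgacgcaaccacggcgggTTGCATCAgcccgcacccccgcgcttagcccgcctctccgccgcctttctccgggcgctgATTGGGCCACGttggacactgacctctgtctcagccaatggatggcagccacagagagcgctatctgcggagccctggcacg
Asns: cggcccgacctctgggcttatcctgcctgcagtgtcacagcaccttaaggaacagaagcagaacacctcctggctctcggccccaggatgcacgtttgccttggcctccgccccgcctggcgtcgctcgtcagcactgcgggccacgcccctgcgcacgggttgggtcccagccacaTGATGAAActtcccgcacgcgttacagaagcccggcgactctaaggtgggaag
Chac1: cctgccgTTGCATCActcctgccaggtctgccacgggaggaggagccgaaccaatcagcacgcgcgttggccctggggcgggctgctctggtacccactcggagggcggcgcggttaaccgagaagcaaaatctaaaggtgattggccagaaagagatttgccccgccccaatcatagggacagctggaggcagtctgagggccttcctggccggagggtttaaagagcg
Trib3: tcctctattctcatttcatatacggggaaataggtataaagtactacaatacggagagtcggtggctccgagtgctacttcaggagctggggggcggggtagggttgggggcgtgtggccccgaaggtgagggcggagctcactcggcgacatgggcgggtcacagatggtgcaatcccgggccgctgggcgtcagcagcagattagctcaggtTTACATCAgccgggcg
These lie at chr2:34771890-34772119 (plus strand), chr8:94386229-94386458 (plus), chr6:7693180-7693409 (minus), chr2:119351042-119351271 (plus) and chr2:152344031-152344260 (minus).

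In *Hspa5* the ERSE spanned bases -65 to -47 on the plus strand of the gene. *Herpud1* held an ERSE-II at -52 to -42 and a CARE on the opposite strand at -112 to -105. The CARE of *Asns* lay at -23 to -16, that of *Chac1* at -193 to -186 on the opposite strand, and that of *Trib3* at +15 to +22 on the opposite strand. Across 32851 promoter windows of this length, ERSE was present in 0.119%, ERSE-II in 0.0365% and CARE in 3.97%. The *Atf6* and *Xbp1* element UPRE (TGACGTGG), present in 0.676% of all windows, was in none of the 9. None of the searched elements was found in the windows of *Xbp1*, *Ern1*, *Atf4* and *Ddit3*. ERSE and ERSE-II share letters but no match of one overlapped the other.

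**Figure D1:**
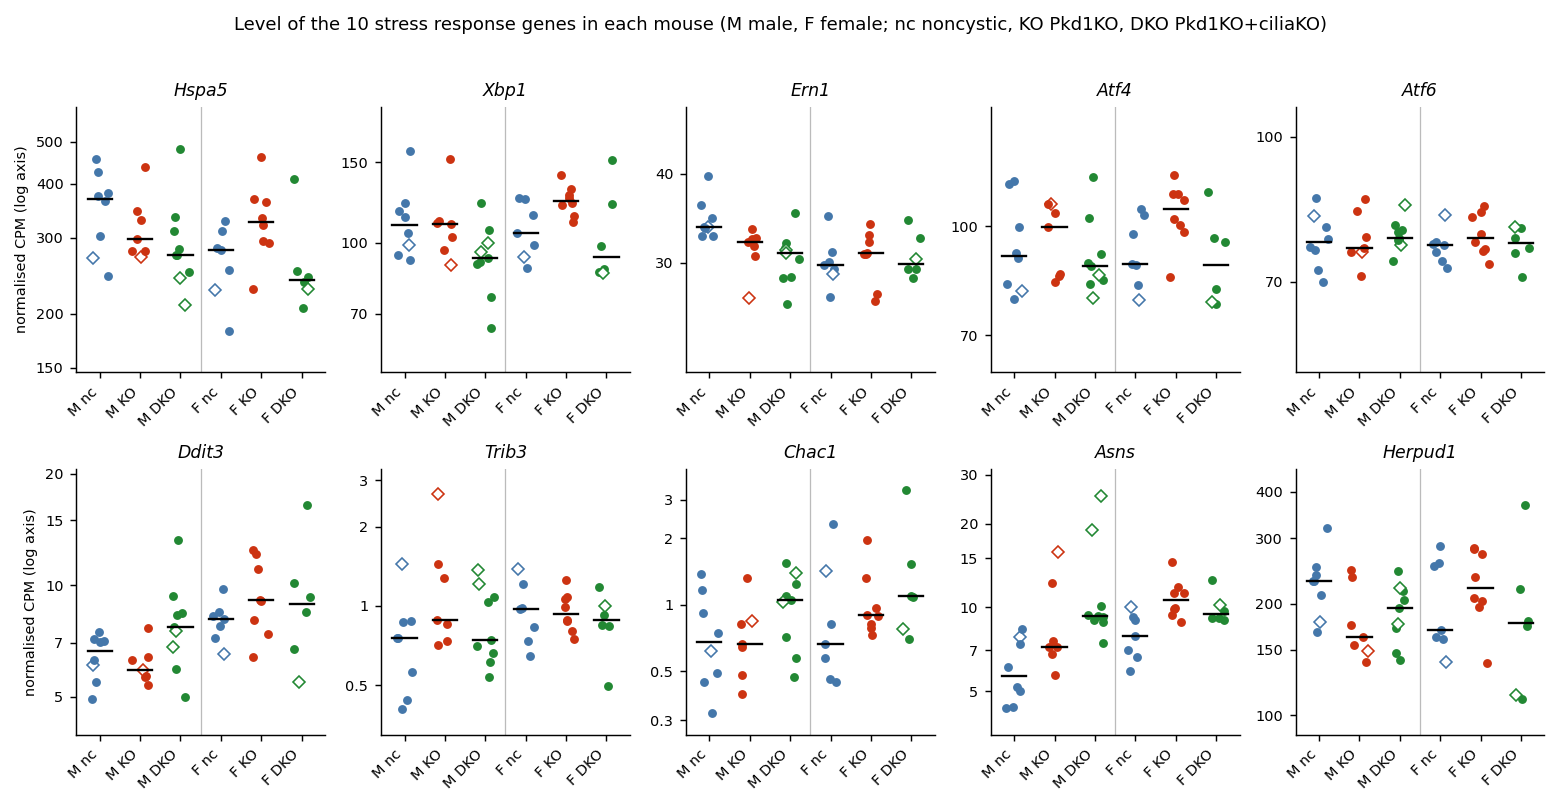
Level of each of the 10 members in every mouse, in CPM on a log axis, by group; points are mice, bars are group medians, and open symbols are the 6 libraries that stand apart. *Asns* rises from 4.36 to 8.38 CPM in noncystic males to 7.43 to 25.2 CPM in Pkd1KO+ciliaKO males, whereas *Atf6* stays between 70.04 and 86.1 CPM in all mice.

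*Asns*, asparagine synthetase, is the enzyme by which *Atf4* raises the supply of asparagine. In noncystic males *Asns* lay between 4.36 and 8.38 CPM (median 5.64), in Pkd1KO males between 5.70 and 15.8 CPM (median 7.21), and in Pkd1KO+ciliaKO males between 7.43 and 25.2 CPM (median 9.34). All 9 Pkd1KO+ciliaKO males were above the noncystic median and 8 of 9 were above the highest noncystic male, while the lowest, at 7.43 CPM, lay below the 2 highest noncystic males, at 7.82 and 8.38 CPM. The difference was 0.98 on the log2 scale (SE 0.237, 95% confidence interval 0.48 to 1.48), or 1.97-fold, with an adjusted p of 0.0140 by edgeR's quasi-likelihood test. This was the 1 member called in that comparison, in which 8.89% of the 15991 genes tested were called. Of 9 alternatives 8 kept the *Asns* call. It was lost with a replicate block, although the replicate numbers do not pair the mice.

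The 2 highest *Asns* values, 19.0 and 25.2 CPM, came from the Pkd1KO+ciliaKO libraries that stand apart, and the other 7 mice lay between 7.43 and 10.1 CPM. Without the 4 male libraries the difference fell to 0.63 on the log2 scale, with an edgeR adjusted p of 0.0068. Other values moved with the same contrast. Of 5 proximal tubule markers, 4 were lower in Pkd1KO+ciliaKO than in noncystic males, the sum of the 5 being 5016 to 7907 CPM against 6299 to 9996 CPM. Their sizes were uneven, with *Slc5a2* at -4.48 on the log2 scale (edgeR adjusted p = 1.51e-12) and *Cubn* at -0.50 (edgeR adjusted p = 0.00287). Of 6 immediate early genes 1 was higher, their sum being 82.5 to 1647 CPM against 65.1 to 408 CPM. The 1647 CPM came from Pkd1KO+ciliaKO male 2, and the next highest male of that group was at 277 CPM. Pkd1KO+ciliaKO males 6 and 8, with the 2 highest *Asns* values, had immediate early sums of 90.1 and 82.5 CPM. The part of these markers in the *Asns* result was not tested.

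Between Pkd1KO and noncystic males *Asns* differed by 0.54 on the log2 scale (SE 0.215, edgeR adjusted p = 0.147), with all 7 Pkd1KO mice above the noncystic median. Pkd1KO and Pkd1KO+ciliaKO males differed by -0.44 (SE 0.276, interval -1.03 to 0.14, edgeR adjusted p = 0.392). Without the 4 male libraries these differences were 0.42 (edgeR adjusted p = 0.237) and -0.22 (edgeR adjusted p = 0.465). The male groups stood in the order noncystic, Pkd1KO, Pkd1KO+ciliaKO by their medians, with neighbours in that order not separated by the test.

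Female mice showed *Asns* at 5.91 to 9.99 CPM (median 7.90) in noncystic, 8.89 to 14.5 CPM (median 10.6) in Pkd1KO and 8.97 to 12.5 CPM (median 9.43) in Pkd1KO+ciliaKO animals. All 8 Pkd1KO females were above the noncystic median, and 4 of 8 were above every noncystic female. The difference between Pkd1KO and noncystic females was 0.45 on the log2 scale (SE 0.122, interval 0.19 to 0.71), or 1.37-fold, with an edgeR adjusted p of 0.0521, just outside the threshold. DESeq2 gave an adjusted p of 0.0113, and without the 2 female libraries the edgeR adjusted p was 0.0280. Pkd1KO+ciliaKO females differed from noncystic females by 0.33 (SE 0.122, edgeR adjusted p = 0.138). That comparison holds both female libraries whose *Kif3a* went against the label. The male minus female difference of the Pkd1KO+ciliaKO effect was 0.65 (SE 0.301, edgeR adjusted p = 0.860), so an effect that differs between the sexes was not shown.

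*Trib3*, a pseudokinase that *Atf4* and *Ddit3* induce and that restrains Akt, was below 3 CPM in every mouse. In males it lay at 0.406 to 1.44 CPM (median 0.756) in noncystic, 0.709 to 2.65 CPM (median 0.886) in Pkd1KO and 0.539 to 1.37 CPM (median 0.742) in Pkd1KO+ciliaKO mice. The 4 male libraries that stand apart held the highest *Trib3* values of their groups, at 1.44 CPM in noncystic 3, 2.65 CPM in Pkd1KO 4, and 1.21 and 1.37 CPM in Pkd1KO+ciliaKO 6 and 8. The groups overlapped, and Pkd1KO against noncystic males gave 0.66 on the log2 scale (SE 0.315, edgeR adjusted p = 0.226), or 0.56 without the 4 libraries (edgeR adjusted p = 0.202). Female group medians were 0.884 to 0.969 CPM.

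*Chac1* breaks down glutathione and is a target of *Atf4*. Its group medians ran from 0.662 to 1.09 CPM, and single mice from 0.322 CPM in a noncystic male to 3.30 CPM in Pkd1KO+ciliaKO female 1. No comparison of *Chac1* had an unadjusted p under 0.05. Its widest effect within a sex was 0.57 on the log2 scale (SE 0.433) between Pkd1KO+ciliaKO and noncystic females, with an interval of -0.35 to 1.49. This effect was 0.13 without Pkd1KO+ciliaKO female 1 and 0.96 without noncystic female 3.

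*Ern1*, the Ire1 kinase and nuclease, varied little but was shifted between groups of males. It lay at 32.7 to 39.8 CPM (median 33.7) in noncystic, 26.7 to 33.4 CPM (median 32.0) in Pkd1KO and 26.3 to 35.2 CPM (median 31.0) in Pkd1KO+ciliaKO males. Of the Pkd1KO+ciliaKO males 8 of 9, and of the Pkd1KO males 6 of 7, were below the lowest noncystic male. The differences from noncystic males were -0.18 (SE 0.0575, edgeR adjusted p = 0.0591) for Pkd1KO+ciliaKO and -0.15 (SE 0.0617, edgeR adjusted p = 0.163) for Pkd1KO, both outside the threshold. For Pkd1KO+ciliaKO, DESeq2 gave an adjusted p of 0.0198, and without the 4 male libraries that stand apart the edgeR adjusted p was 0.0472. Both contrasts used the same noncystic males.

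In noncystic females *Ern1* lay at 26.8 to 34.9 CPM (median 29.7), and in the other female groups the medians were 30.9 and 29.9 CPM. All 8 noncystic males were above the median of the noncystic females, and 2 of 8 were above the highest of them. The male minus female difference was 0.19 on the log2 scale (SE 0.0608), or 1.14-fold, with an edgeR adjusted p of 0.0148. Between the sexes of noncystic mice 27.4% of the 15828 genes tested were called, against 1 of 10 members. The corresponding differences were 0.03 in Pkd1KO (edgeR adjusted p = 0.780) and -0.03 in Pkd1KO+ciliaKO mice (edgeR adjusted p = 0.812). The male minus female difference of the Pkd1KO+ciliaKO effect on *Ern1* was -0.22 (SE 0.0865, edgeR adjusted p = 0.750), so the change of the sex difference with genotype did not pass the test.

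*Atf6*, the sensor that is cleaved in the Golgi, was the most even member, at 70.04 to 86.1 CPM over all 45 mice. Its group medians lay between 76.0 and 77.9 CPM. The standard deviation of log2 CPM within groups was 0.0759, lower than in all but 0.398% of 15828 genes. Its effects within a sex had sizes of at most 0.04 on the log2 scale, and the widest of their intervals ran from -0.12 to 0.12.

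*Ddit3*, also called Chop, is the transcription factor through which prolonged stress is known to promote cell death. Its exons overlap those of *Mars*, which lies on the opposite strand and held 3281 to 6159 counts, and whether the counting used strand is not given in the sources used here, so its values are uncertain. In Pkd1KO males it lay at 5.39 to 7.69 CPM (median 5.90), and in Pkd1KO females at 6.39 to 12.5 CPM (median 9.10). All 7 Pkd1KO males were at or below the female median and 5 of 7 were below the lowest female. The male minus female difference was -0.63 on the log2 scale (SE 0.171), or 0.646-fold, with an edgeR adjusted p of 0.00454. Between the sexes of Pkd1KO mice 30.6% of genes were called, against 1 of 10 members.

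The same sex difference of *Ddit3* was -0.33 in noncystic mice (SE 0.170, edgeR adjusted p = 0.154) and -0.25 in Pkd1KO+ciliaKO mice (SE 0.172, edgeR adjusted p = 0.338). All 8 noncystic males lay at 4.94 to 7.48 CPM, below the noncystic female median of 8.11 CPM. Pkd1KO+ciliaKO males spread more widely, from 4.99 to 13.3 CPM (median 7.71), and 6 of 9 were above the highest noncystic male. That contrast gave 0.33 on the log2 scale (SE 0.153, edgeR adjusted p = 0.198), and Pkd1KO against Pkd1KO+ciliaKO males gave -0.40 (SE 0.161, edgeR adjusted p = 0.177). A change of the sex difference between genotypes was not shown, since the male minus female differences of the *Ddit3* effects had edgeR adjusted p values of 0.726 or more.

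*Xbp1*, the factor that Ire1 activates by splicing, had group medians of 92.6 to 124 CPM. Pkd1KO females lay at 111 to 141 CPM (median 124), and all 8 were above the medians of the noncystic (105 CPM) and Pkd1KO+ciliaKO females (93.1 CPM). The ranges overlapped, with differences of 0.21 on the log2 scale from noncystic (SE 0.0767, edgeR adjusted p = 0.165) and 0.22 from Pkd1KO+ciliaKO females (SE 0.116, edgeR adjusted p = 0.231). In males the median was 109.5 CPM in noncystic, 109.9 CPM in Pkd1KO and 92.6 CPM in Pkd1KO+ciliaKO mice, and 4 of 9 Pkd1KO+ciliaKO males were below the lowest noncystic male (log2 difference -0.27, SE 0.118, edgeR adjusted p = 0.169).

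*Atf4*, the factor translated when eIF2alpha is phosphorylated, had group medians of 87.9 to 106 CPM, the highest in Pkd1KO females at 84.8 to 118 CPM. These females differed by 0.18 on the log2 scale from noncystic (SE 0.0777, edgeR adjusted p = 0.255) and by 0.20 from Pkd1KO+ciliaKO females (SE 0.0916, edgeR adjusted p = 0.172). Male groups differed by at most 0.07 in size.

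*Hspa5* lay at 244 to 456 CPM (median 369.6) in noncystic, 271 to 438 CPM (median 298) in Pkd1KO and 209.7 to 483 CPM (median 274) in Pkd1KO+ciliaKO males. In females it lay at 183 to 328 CPM (median 280.5), 229 to 463 CPM (median 327) and 206 to 411 CPM (median 240.2) in the same order of genotypes. Noncystic mice were thus highest by median among males, and Pkd1KO mice among females, with ranges that overlapped throughout. Of the 8 noncystic males 5 were above the highest noncystic female, a difference of 0.39 on the log2 scale (SE 0.158, edgeR adjusted p = 0.0574).

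Pkd1KO females differed in *Hspa5* by 0.32 on the log2 scale from noncystic (SE 0.134, edgeR adjusted p = 0.234) and by 0.33 from Pkd1KO+ciliaKO females (SE 0.158, edgeR adjusted p = 0.194). In males Pkd1KO against noncystic gave -0.14 (SE 0.138, edgeR adjusted p = 0.583). The male minus female difference of that effect was -0.46 (SE 0.222), with an unadjusted p of 0.0461 and an edgeR adjusted p of 0.611.

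*Herpud1*, which recruits ubiquitin ligases for the degradation of ER proteins, had group medians of 163 to 230.4 CPM. Noncystic males lay at 168 to 319.9 CPM (median 230.4) and Pkd1KO males at 139.5 to 246 CPM (median 163), an overlapping difference of -0.34 on the log2 scale (SE 0.151, edgeR adjusted p = 0.192). The spread was widest in Pkd1KO+ciliaKO females, at 111 to 369 CPM.

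**Figure D2:**
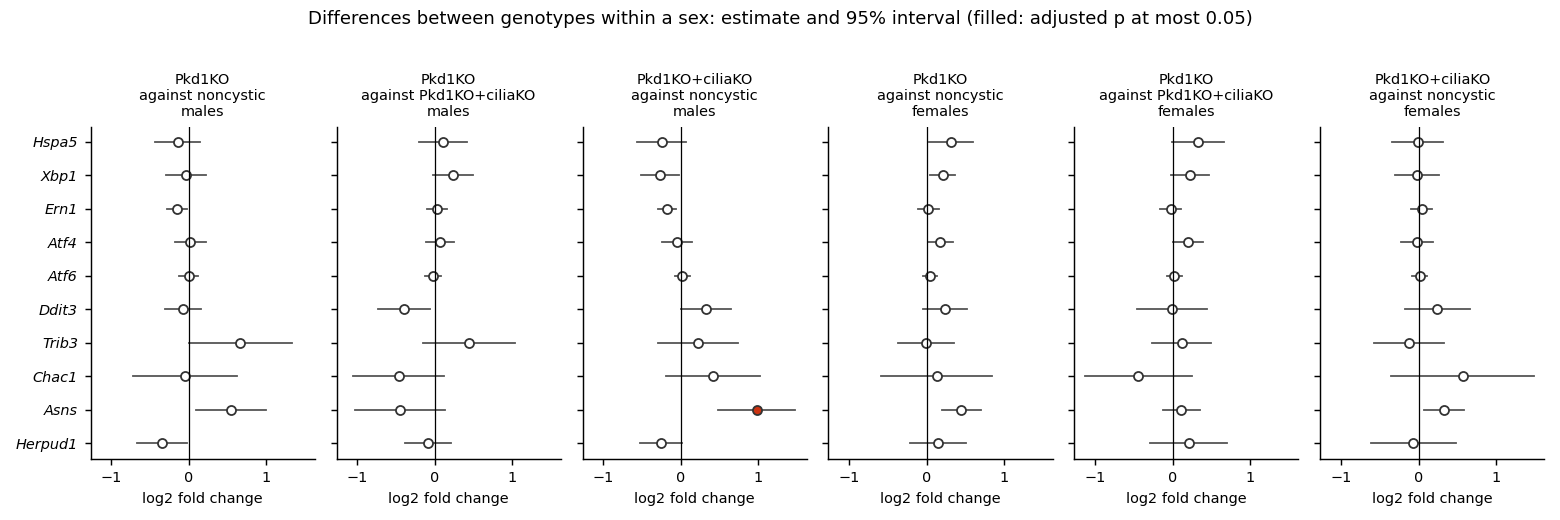
Log2 fold change with its 95% confidence interval for each member in the 6 comparisons of genotypes within a sex; filled symbols passed an adjusted p of 0.05. The 1 filled symbol is *Asns* in Pkd1KO+ciliaKO against noncystic males, at 0.98.

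In males 0 of 10 were called for Pkd1KO against noncystic and 0 of 10 for Pkd1KO against Pkd1KO+ciliaKO, where edgeR called 6.3% and 3.77% of all genes. At an unadjusted p under 0.05 the counts were 3 and 1 of 10, against 22.1% and 19.7% of all genes. DESeq2, limma on TPM and limma voom with sample quality weights also called 0 in both. The median of the 10 effects was -0.04 and 0.00 on the log2 scale, against -0.01 and 0.01 for all genes, and -0.01 against 0.01 for Pkd1KO+ciliaKO against noncystic males.

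In females edgeR called 0 of 10 for each of the 3 comparisons, against 3.34% of genes for Pkd1KO against noncystic, 11.7% for Pkd1KO against Pkd1KO+ciliaKO and 2.54% for Pkd1KO+ciliaKO against noncystic. At an unadjusted p under 0.05 the counts were 4, 1 and 1 of 10, against 16.4%, 27.7% and 21.4% of all genes. DESeq2 called 1, 0 and 0, limma on TPM 0, 0 and 1, and voom 1, 3 and 0. The shares of all genes called by these other methods are not given here, so these counts have no background beside them. In Pkd1KO females 9 of 10 members lay above noncystic females, with a median of 0.16 on the log2 scale against -0.00083 for all genes. Against Pkd1KO+ciliaKO females 7 of 10 lay above, with a median of 0.11 against -0.011 for all genes. For Pkd1KO+ciliaKO against noncystic females it was 5 of 10, with a median of 0.00031 against 0.0089. The first 2 contrasts share the Pkd1KO mice. Some members also varied together across mice, so these signs are not independent of each other.

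Between the sexes of Pkd1KO+ciliaKO mice 0 of 10 members were called by edgeR and by DESeq2 and 1 (*Hspa5*) by voom, and 19.4% of all genes were called by edgeR. At an unadjusted p under 0.05 the count was 0 of 10, against 31.9% of all genes. For the male minus female differences of the genotype effects edgeR called 0.0126% of genes for Pkd1KO against noncystic, 0.221% for Pkd1KO against Pkd1KO+ciliaKO and 0.0316% for Pkd1KO+ciliaKO against noncystic. No member was among them by edgeR or DESeq2. Voom called 1 (*Ern1*, in the last), and 1, 0 and 2 of 10 members had an unadjusted edgeR p under 0.05, against 8.08%, 7.94% and 5.49% of all genes.

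The members differed in how much they varied between mice of one group. The within-group standard deviation of log2 CPM was 0.664 for *Chac1*, 0.479 for *Trib3*, 0.403 for *Asns*, 0.385 for *Herpud1*, 0.332 for *Ddit3* and 0.310 for *Hspa5*, against a median of 0.221 for all genes. *Xbp1* (0.239) was near that median, and *Atf4* (0.183), *Ern1* (0.112) and *Atf6* (0.0759) were below it.

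After group means were removed, 9 of the 45 pairs of members were correlated across the 45 mice at an adjusted p of 0.05 in a permutation test of Pearson's r (100000 permutations within groups, two-sided), and all 9 were positive. The closest pair was *Trib3* and *Asns* (r = 0.710, permutation p = 1e-05, adjusted p = 0.000225; rho = 0.669, adjusted p = 0.00045). Without the 2 mice farthest from the median in *Trib3* the r of *Trib3* and *Asns* was 0.648, and without the 6 libraries that stand apart it was 0.522. It was 0.730 in males (permutation adjusted p = 0.00135) and 0.647 in females (permutation adjusted p = 0.0372). Markers moved with both genes over the 45 mice, as a description. Each marker set was taken as the mean of its log2 CPM deviations from group means. Its r with the endothelial markers was 0.516 for *Trib3* and 0.351 for *Asns*, with the macrophage markers 0.420 and 0.324, and with the proximal tubule markers -0.359 and -0.424. Pkd1KO male 4, with the highest endothelial and macrophage sums and the lowest proximal tubule sum, was among these mice. The part of the markers in the pair was not tested. The raw p of 1e-05 is the smallest that these permutations can give.

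A second group of pairs joined the ER genes. *Ddit3* and *Herpud1* had r = 0.667 (permutation p = 1e-05, adjusted p = 0.000225; rho = 0.589, adjusted p = 0.00247), and r = 0.634 without the 2 mice farthest from the median in *Ddit3*. *Xbp1* and *Herpud1* had r = 0.614 (permutation p = 4e-05, adjusted p = 0.0006; rho = 0.56), *Xbp1* and *Ddit3* r = 0.549 (permutation adjusted p = 0.00394; rho = 0.525), and *Hspa5* and *Xbp1* r = 0.524 (permutation adjusted p = 0.00585; rho = 0.439). The r of *Hspa5* and *Xbp1* fell to 0.369 without the 2 mice farthest from the median in *Hspa5*. Within a sex the *Xbp1* and *Herpud1* pair had r = 0.608 in males and 0.673 in females but permutation adjusted p values of 0.0523 and 0.0542. As a description over the 45 mice, the mean log2 deviation of the cytosolic heat shock genes had r = 0.678 with *Ddit3*, 0.515 with *Xbp1* and 0.449 with *Herpud1*. That of the immediate early genes had r = 0.622 with *Ddit3* and 0.322 with *Herpud1*. *Xbp1* had r = -0.505 with the mean log2 deviation of the macrophage markers and -0.611 with that of the plasma and B cell markers. The part of these markers in the pairs was not tested. By Spearman's rho 1 negative pair, *Atf4* and *Atf6*, also passed (rho = -0.44, permutation adjusted p = 0.0277), whereas its Pearson's r of -0.39 had a permutation adjusted p of 0.058.

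*Chac1* was tied to both groups. Its r was 0.448 with *Hspa5* (permutation adjusted p = 0.0302), 0.412 with *Trib3* (permutation adjusted p = 0.0434), 0.406 with *Ddit3* (permutation adjusted p = 0.0434) and 0.387 with *Asns* (permutation adjusted p = 0.0434). By Spearman's rho the pairs of *Chac1* with *Hspa5* (rho = 0.392, permutation adjusted p = 0.0539) and with *Ddit3* (rho = 0.345, permutation adjusted p = 0.0825) were outside the threshold. *Atf4* mRNA was in none of the 9 pairs, and its r with *Asns* was -0.18 (permutation p = 0.259, adjusted p = 0.449; rho = -0.25). All the mice of a pair share depth and library, and the 9 pairs come from 1 family of 45.

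**Figure D3:**
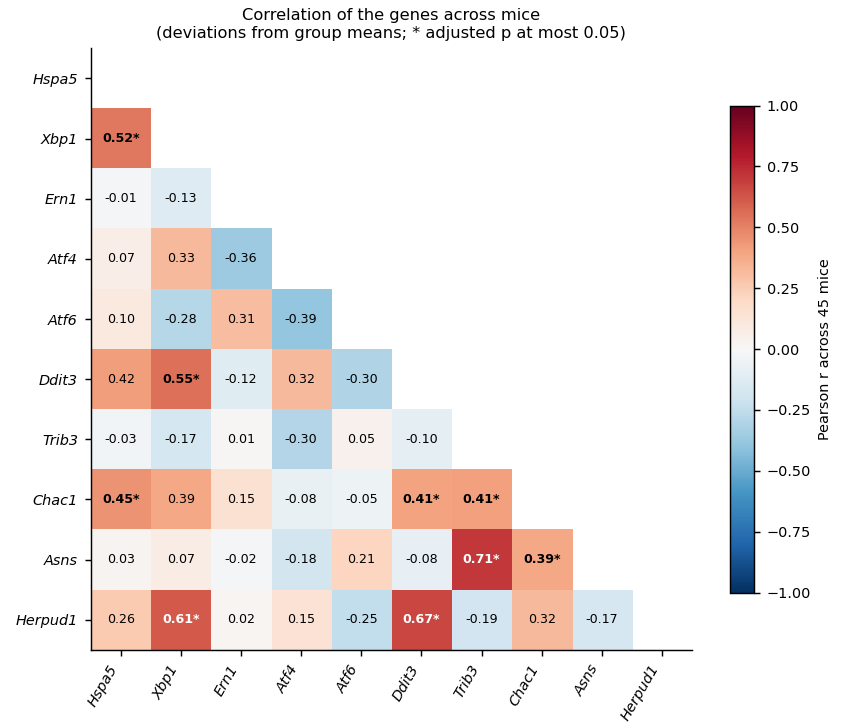
Pearson's r for the 45 pairs of members across 45 mice, on log2 CPM with group means removed; colour gives r and asterisks mark the 9 pairs that passed an adjusted p of 0.05. *Trib3* and *Asns* (0.710) and *Ddit3* and *Herpud1* (0.667) are the highest.

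Of all 15828 genes tested in both sexes, those whose deviations followed *Hspa5* most closely were the ER genes *Manf* (r = 0.895 over 45 mice), *Creld2* (0.867), *Hsp90b1* (0.816) and *Pdia4* (0.812), and the ER calcium pump gene *Atp2a2* (0.794). Without the 6 libraries these Pearson's r were 0.902, 0.857, 0.805, 0.782 and 0.774. Among 20 ER chaperones and folding enzymes 14 had an r over 0.5 with *Hspa5*, against 1.72% of all genes. For *Asns* the closest were *Pfkp* (0.879), *Ahr* (0.814), *Lrrfip1* (0.767), *Aldh18a1* (0.765) and *Uck2* (0.764), of which *Aldh18a1* makes proline and is a known *Atf4* target. Without the 6 libraries these values fell to 0.774, 0.573, 0.402, 0.499 and 0.638. Among 25 *Atf4* partners and targets 6 had an r over 0.5 with *Asns*, against 5.21% of all genes. These likenesses are descriptions over mice that share depth and library.

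**Figure D4:**
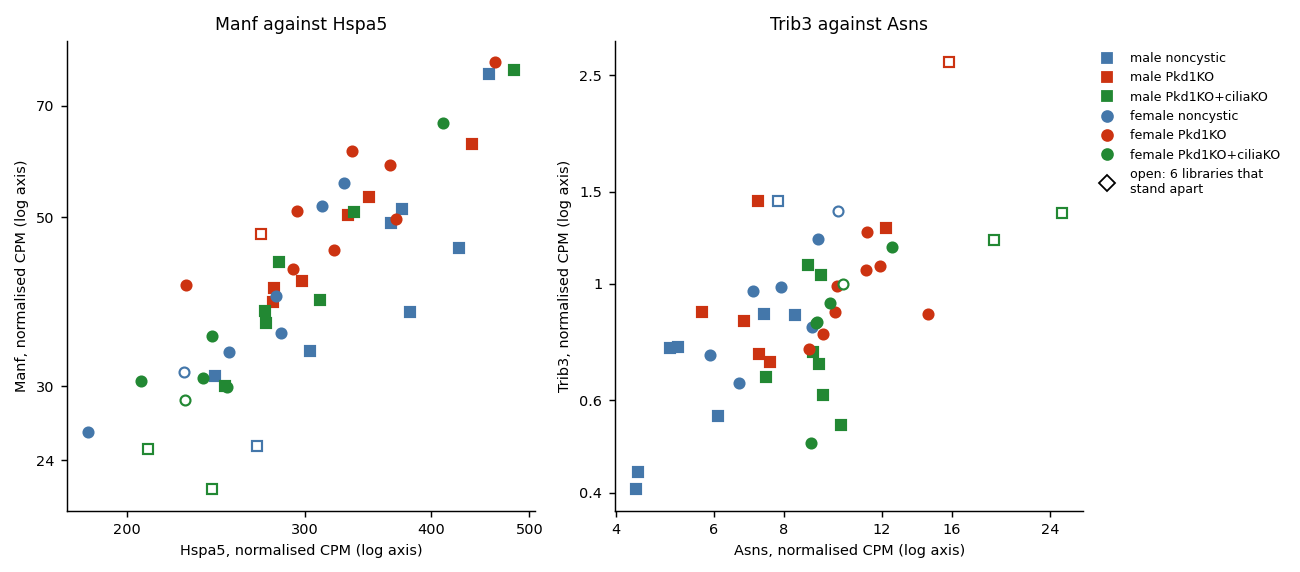
*Manf* against *Hspa5* (left) and *Trib3* against *Asns* (right) in CPM on log axes, 1 point a mouse, squares for males and circles for females, coloured by genotype, with open symbols for the 6 libraries that stand apart. *Manf* rises with *Hspa5* across mice (r = 0.895 once group means are removed), and the r of *Trib3* and *Asns*, 0.710, becomes 0.522 without the open symbols.

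The wider pathway was read through 109 tested genes in 7 lists. The lists were chosen with earlier results of these data known, so the counts describe these genes and are no test of the pathway. Shares of all genes called are for fits with every library, and counts without libraries have none beside them. Between Pkd1KO and noncystic males 8 of 109 were higher and 0 lower, where edgeR called 6.3% of all genes (648 higher and 360 lower), 5 of the 8 among the 25 *Atf4* partners and targets (list median 0.20 on the log2 scale, all genes -0.01). *Stc2*, a secreted stanniocalcin, was 1.42 to 4.67 CPM in noncystic and 4.64 to 17.4 CPM in Pkd1KO males, a log2 difference of 1.71 (edgeR adjusted p = 0.006). *Phgdh*, the first enzyme of serine synthesis, differed by 1.10 (edgeR adjusted p = 0.0159), the ER reductase *Dnajc10* by 0.42 (edgeR adjusted p = 0.000536), the ER-anchored factor *Creb3l1* by 0.61 (edgeR adjusted p = 0.00552) and the death receptor *Tnfrsf10b* by 0.88 (edgeR adjusted p = 0.0192). Without the 4 male libraries 8 were again higher, 7 of them shared. Beside these, macrophage markers summed to 89.8 to 244 CPM in Pkd1KO and 66.8 to 92.7 CPM in noncystic males. The 244 CPM came from Pkd1KO male 4, and the next highest Pkd1KO male was at 122 CPM. Mast cell markers summed to 0.833 to 3.49 CPM in Pkd1KO and 0.0955 to 0.240 CPM in noncystic males, and *Ms4a2* was higher by 3.31 (edgeR adjusted p = 8.28e-05). The part of these markers was not tested.

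In females Pkd1KO against noncystic gave 7 of 109 higher and 0 lower, with 3.34% of all genes called (322 higher and 211 lower). Without the 2 female libraries the same 7 were higher and 0 lower. The 7 included *Stc2* (log2 difference 1.199, edgeR adjusted p = 0.00124), *Phgdh* (0.63, edgeR adjusted p = 0.000627), *Dnajc10* (0.44, edgeR adjusted p = 0.00309) and *Tnfrsf10b* (0.53, edgeR adjusted p = 0.0237). *Stc2* lay at 3.36 to 6.38 CPM in noncystic and 6.198 to 13.96 CPM in Pkd1KO females, which overlapped slightly. *Asns* (0.45), *Trib3* (-0.00479) and *Chac1* (0.13), described above as raised by *Atf4*, did not pass the test in these females, and neither did any other member. Beside these, the mast cell marker *Ms4a2* was higher by 2.77 (edgeR adjusted p = 0.00411) and the mast cell sum was 1.06 to 6.52 CPM against 0.231 to 1.77 CPM. The 1.77 CPM came from noncystic female 5, a library that stands apart. The part of the mast cell markers was not tested.

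Against Pkd1KO+ciliaKO, Pkd1KO males had 3 of 109 genes higher and 0 lower, with 3.77% of all genes called (318 higher and 285 lower). The 3 were *Stc2* (1.17, edgeR adjusted p = 0.023), *Shmt2*, a mitochondrial serine enzyme (0.41, edgeR adjusted p = 0.0334), and *Dnajc10* (0.32, edgeR adjusted p = 0.00473). Without the 4 male libraries 4 were higher and 0 lower, 2 of them shared, and *Stc2* was at 0.98 with an edgeR adjusted p of 0.065. In the same males *Slc5a2* (4.20, edgeR adjusted p = 1.27e-08) and the macrophage marker *Csf1r* (0.77, edgeR adjusted p = 0.00187) were higher. Lower were *Pvalb* of the distal tubule (-2.37, edgeR adjusted p = 0.0139), *Slc12a1* of the thick ascending limb (-0.73, edgeR adjusted p = 0.0454) and *Foxi1* of intercalated cells (-0.55, edgeR adjusted p = 0.0410). The part of these genes was not tested. Pkd1KO females had 16 higher and 2 lower, with 11.7% of all genes called (1126 higher and 743 lower), and 14 and 2 without the 2 female libraries. The higher genes included 3 of 20 ER chaperones and folding enzymes and 4 of 19 genes of ER-associated degradation and translocation, among them *Dnajb11* (0.38, edgeR adjusted p = 0.00417), *Txndc5* (0.46, edgeR adjusted p = 0.00518), *Ssr2* (0.28, edgeR adjusted p = 0.00469) and *Edem2* (0.34, edgeR adjusted p = 0.0079). The lower genes were the kinase gene *Eif2ak4* (-0.34, edgeR adjusted p = 0.0486) and the amino acid transporter *Slc38a2* (-0.49, edgeR adjusted p = 0.0336). In the same females the macrophage markers summed to 56.9 to 112 CPM against 34.6 to 64.7 CPM, and *Csf1r* (0.78, edgeR adjusted p = 0.00581) and the proximal tubule marker *Slc5a2* (2.30, edgeR adjusted p = 0.0376) were higher and the distal tubule marker *Pvalb* (-1.68, edgeR adjusted p = 0.0321) lower. Their part was not tested.

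Between Pkd1KO+ciliaKO and noncystic males, where *Asns* was higher, 8 of 109 genes were higher and 3 lower, with 8.89% of all genes called (901 higher and 521 lower). *Phgdh* (0.75, edgeR adjusted p = 0.0121) and the folate enzyme *Mthfd2* (0.50, edgeR adjusted p = 0.0104) were higher, whereas *Shmt2* (-0.33, edgeR adjusted p = 0.0243), the tRNA synthetase *Hars* (-0.23, edgeR adjusted p = 0.0251) and the ER lectin *Os9* (-0.32, edgeR adjusted p = 0.00892) were lower. Without the 4 male libraries 11 were higher and 10 lower, with all 11 earlier calls kept. In females the same contrast gave 2 higher, *Slc38a2* (0.60, edgeR adjusted p = 0.0473) and *Vldlr* (0.26, edgeR adjusted p = 0.0257), and 1 lower, *Ssr4* (-0.25, edgeR adjusted p = 0.0364), with 2.54% of all genes called (107 higher and 298 lower). Without the 2 female libraries 3 were higher and 1 lower, with all 3 earlier calls kept.

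**Figure D5:**
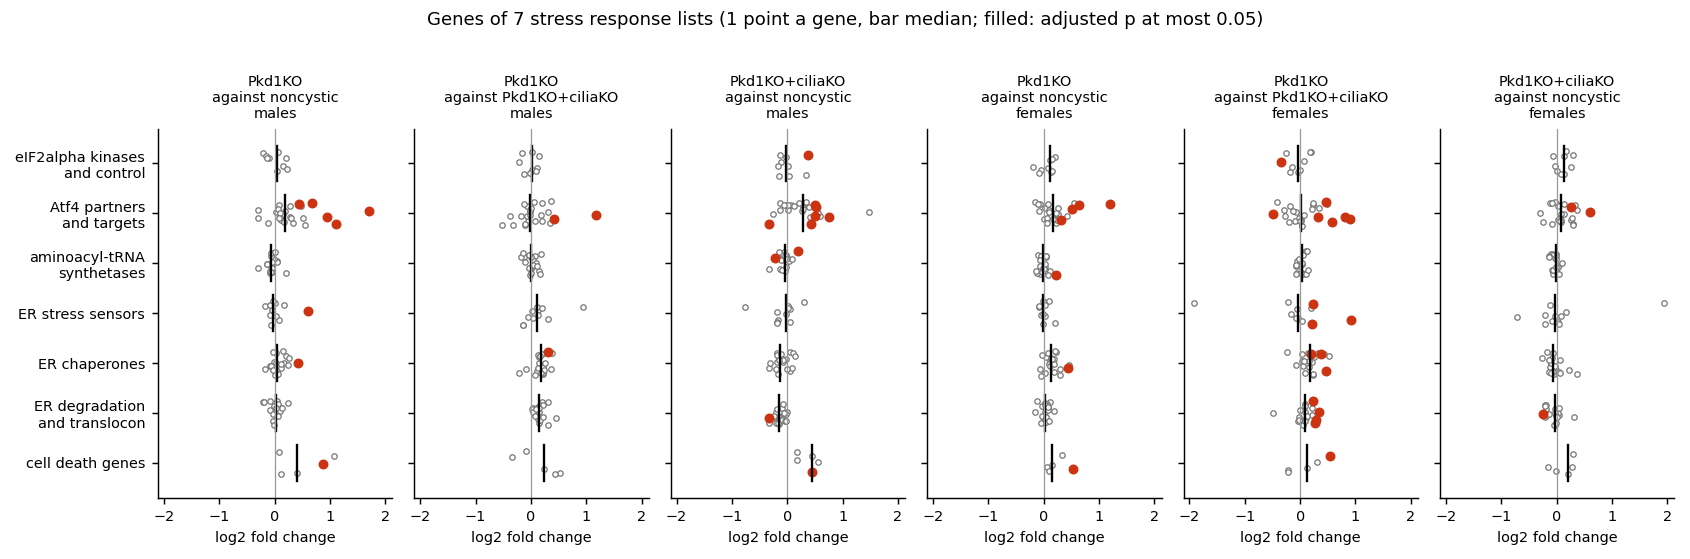
Log2 fold change (horizontal axis) of each tested gene of the 7 pathway lists in the 6 comparisons of genotypes within a sex, 1 point a gene with bars at list medians; filled points passed an adjusted p of 0.05. The filled points of Pkd1KO against noncystic lie to the right of 0 in both sexes, 8 in males and 7 in females. The lists were chosen with earlier results of these data known.

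The sexes were compared in a fit that held all 45 mice. In noncystic mice 25 of 109 genes were higher and 15 lower in males, in Pkd1KO mice 21 and 11, and in Pkd1KO+ciliaKO mice 13 and 7, where 27.4%, 30.6% and 19.4% of all genes were called. Without the 6 libraries the counts were 31 and 19, 30 and 15, and 21 and 9. In noncystic mice, where 2232 of all genes were higher and 2102 lower, 10 of 20 cytosolic tRNA synthetases were higher in males and 0 lower, among them *Farsb* (0.53, edgeR adjusted p = 6.74e-07), while 11 of 25 *Atf4* partners and targets were lower and 1, *Shmt2* (1.00, edgeR adjusted p = 4.5e-09), was higher. *Edem1*, which sorts misfolded glycoproteins for degradation, was higher in males by 0.82 (edgeR adjusted p = 1.33e-05), and *Creb3l1* lower by 1.06 on the log2 scale (edgeR adjusted p = 8.92e-06). *Asns*, at -0.40 in the same contrast (SE 0.211, edgeR adjusted p = 0.162), did not pass the test. Of the 109 genes 1, *Cth*, had a Pkd1KO against Pkd1KO+ciliaKO effect that differed between the sexes (-0.59, edgeR adjusted p = 0.0353), and it was not called without the 6 libraries.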

How the data were processed

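TRAP libraries, rRNA-depleted and read as 150 bp pairs in a single batch, were trimmed with fastp 0.20.0, aligned with STAR 2.7.9 to GRCm38.p6 and counted with featureCounts 2.0.0, per the labels and the study's methods. The authors deposited raw counts for every gene. They also deposited TPM, listed per sex for protein-coding genes that reached 6 counts in 20% or more of its mice. The strand setting of the counting is not given in the sources used here.

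Each pair of genotypes within a sex was tested on the deposited counts with edgeR 4.0.16 (R 4.3.3; TMM, quasi-likelihood test, Benjamini-Hochberg adjusted p at most 0.05) over the genes of that sex's TPM table, 15991 in males and 15968 in females. Sexes were compared in 1 fit of all 45 mice over 15828 genes. CPM values carry TMM factors over all mice. Alternatives were DESeq2 1.42.0, 1 fit per sex, DESeq2's size factors, no filter, filterByExpr, a replicate block, limma 3.58.1 on log2(TPM + 1), voom weights, and leaving out each mouse or the libraries that stand apart. edgeR stood in for the DESeq2 test of the study's methods. The tests were checked on simulated counts.

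Same-numbered mice did not deviate together (11 of 41 pairs with r over 0.1; range -0.287 to 0.280), so no pairing was used. In 149 pairs of mice within groups the lowest chi-square per degree of freedom was 39.7, so every library was counted as its own mouse. Intervals cover the spread between these mice only. The members and lists were chosen with earlier results of these data known. Genes named beyond the members were at most 2 with the smallest p per list, comparison and direction, and the 5 most like *Hspa5* and *Asns*. The ERSE-II motif and the lists without the libraries that stand apart were added after the data were seen. Sequences are RefSeq's.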

Additional observations from a re-analysis of the deposited data

Results flagged for a closer look

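In 9 of 60 sets of 1 member in 1 group, the highest or lowest mouse lay farther from the nearest other mouse than Dixon's test allows at the 95% level, where chance gives about 1 in 20. Of these, 8 were high and 1 was low, over 6 members. *Hspa5* was 483 CPM in Pkd1KO+ciliaKO male 1 (next 335 CPM) and 411 CPM in Pkd1KO+ciliaKO female 1 (next 251 CPM). The latter mouse was also the highest of its group in *Chac1*, at 3.30 CPM (next 1.53 CPM), and in *Asns*, at 12.5 CPM (next 10.2 CPM). *Xbp1* was 158 CPM in noncystic male 5 (next 122 CPM) and 152 CPM in Pkd1KO male 1 (next 112 CPM).

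*Trib3* was 1.44 CPM in noncystic male 3 (next 0.875 CPM) and 2.65 CPM in Pkd1KO male 4 (next 1.44 CPM), both of them libraries that lay apart on the first principal component. In Pkd1KO male 4 *Ern1* was the lowest of its group, at 26.7 CPM (next 30.6 CPM).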

How the results depend on the processing

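Over the 12 comparisons and the correlated pairs, 75 of 95 alternatives gave the same count of members or one within 1.5 times of it and 20 did not. No called member changed direction. Shares of all genes called are given for the main edgeR fits only, so the counts of the alternatives have none beside them. For Pkd1KO+ciliaKO against noncystic males the count of 1 became 2 (*Asns* and *Ern1*) with DESeq2, with voom weights and without the 4 male libraries, and 0 with the replicate block, where *Asns* was at 0.93 on the log2 scale (edgeR adjusted p = 0.0728); the block changed no other member's call. The replicate numbers do not pair the mice. For Pkd1KO against noncystic females the count of 0 became 1 (*Asns*) with DESeq2, 1 fit per sex, voom weights and without the 2 female libraries. For Pkd1KO against Pkd1KO+ciliaKO females it became 3 (*Hspa5*, *Xbp1* and *Atf4*) with voom weights, and for Pkd1KO+ciliaKO against noncystic females 1 (*Asns*) with limma on TPM. Between the sexes of noncystic mice the count of 1 became 2 with DESeq2 and with its size factors (*Hspa5* added), 2 without the 6 libraries (*Asns* added) and 3 with voom weights. In Pkd1KO mice it became 2 (*Asns* added) with voom weights and without the 6 libraries. With voom weights it became 1 (*Hspa5*) in Pkd1KO+ciliaKO mice, and 1 (*Ern1*) for the male minus female difference of Pkd1KO+ciliaKO against noncystic. The 9 correlated pairs became 1 in males alone and 4 in females alone. The cause of these changes was not tested. The sets within a sex also held fewer mice, 24 males and 21 females.

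Leaving out 1 mouse gave 1 to 2 members for Pkd1KO+ciliaKO against noncystic males, 0 to 1 for Pkd1KO against noncystic females, 0 to 2 for Pkd1KO against Pkd1KO+ciliaKO females, 1 to 2 between the sexes of noncystic mice and 1 between those of Pkd1KO mice, with 0 in the other 7 comparisons. *Ern1* in Pkd1KO+ciliaKO against noncystic males passed without noncystic 3 (edgeR adjusted p = 0.0468) or Pkd1KO+ciliaKO 9 (0.0269). *Asns* in Pkd1KO against noncystic females passed without noncystic 5 (0.0280) or Pkd1KO 6 (0.0495). *Hspa5* and *Xbp1* in Pkd1KO against Pkd1KO+ciliaKO females passed without Pkd1KO+ciliaKO 1 (0.0241 and 0.0197). *Hspa5* between the sexes of noncystic mice passed when any 1 of 6 mice was left out (edgeR adjusted p = 0.0313 to 0.0481). The calls of *Asns*, *Ern1* and *Ddit3* named in the report were kept in every such fit. At 27 to 342 counts, *Chac1* had intervals too wide to show an effect of the size seen for *Asns* in females.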

Other observations

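Markers of other cells were present in every mouse: the 3 fibroblast markers summed to 115 to 808 CPM, the 4 macrophage markers to 34.6 to 244 CPM and the 3 endothelial markers to 33.6 to 238 CPM. These maxima all came from Pkd1KO male 4, a library that stands apart. The next highest mice were at 765 CPM for fibroblast, 122 CPM for macrophage and 126 CPM for endothelial markers. The 3 mast cell markers summed to at most 6.52 CPM and the 5 plasma and B cell markers to at most 5.59 CPM in any mouse. *Xbp1*, a factor that plasma cells also use, lay at 65.3 to 158 CPM, and the part of plasma cells in it was not tested. The mast cell sum lay at 1.06 to 6.52 CPM in Pkd1KO females and at 0.231 to 1.77 CPM in noncystic females, with overlap. The 1.77 CPM came from noncystic female 5, a library that stands apart, and the next highest noncystic female was at 0.388 CPM. In males the mast cell sum lay at 0.833 to 3.49 CPM in Pkd1KO and at 0.0955 to 0.240 CPM in noncystic mice, without overlap.

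In the 4 male libraries that lay apart on the first principal component *Asns* was 7.82 CPM in noncystic 3, 15.8 CPM in Pkd1KO 4, and 19.0 and 25.2 CPM in Pkd1KO+ciliaKO 6 and 8. The other mice of these groups lay at 4.36 to 8.38 CPM, 5.70 to 12.2 CPM and 7.43 to 10.1 CPM, so noncystic 3 was within the range of its group. *Trib3* did not stand in the same order, with its highest value, 2.65 CPM, in Pkd1KO 4.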
